A study of Arabidopsis thaliana with 19 samples.

Results

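Within gene-poor, heterochromatic pericentromeric intervals of the Arabidopsis thaliana chromosomes, sperm chromatin carried 734 called peaks of H3K4me3, out of 22150 in the whole genome (3.31%). These peaks, called islands here, were chosen by position alone: the summit of a narrow H3K4me3 peak lay on chromosome 1 at 13 to 17 Mb, 2 at 2 to 7 Mb, 3 at 11 to 16 Mb, 4 at 3 to 6 Mb or 5 at 10 to 14.5 Mb. The other 21416 peaks lay outside these intervals and are called arm peaks. The chromatin came from sperm nuclei of ecotype Col-0, labelled wild type, which were sorted by fluorescence from a line carrying the H3.10 histone gene HTR10 fused to Clover under the HTR10 promoter, and was cut to mononucleosomes with micrococcal nuclease. The labels list 3 immunoprecipitations of H3K4me3 and 3 of H3K27ac, while each methylation of H3K27 has 2, all made from the 3 chromatin inputs named Input_A. The remaining samples, 3 of H3.10 and 3 of Input_B, are not analysed here. A mark has 1 narrow and 1 broad peak list, merged over its samples. The lists hold nothing for single samples, so neither depth nor the spread between replicates is known, and a replicate test cannot be made. Every comparison below describes called peaks, and the intervals given with shares are exact 95% binomial (Clopper-Pearson) intervals that treat peaks as independent and cover counting error only.

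Pericentromeres flank the centromeres and are packed with transposable elements and other repeats. In Arabidopsis this heterochromatin carries DNA methylation, H3K9me2 and H3K27me1, the last set by ATXR5 and ATXR6. Expressed genes scattered among the repeats can keep the marks of active promoters: H3K4me3, set by Trithorax-type methyltransferases near transcription starts, and H3K27ac, set by acetyltransferases on the same lysine that carries H3K27me1 or H3K27me3 when it is methylated.

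Islands were sparse, and they were sparser than the genes around them. The 21.5 Mb of the intervals held 34.1 islands and 70.6 protein-coding genes per Mb, while the 97.6 Mb of the arms held 219.3 H3K4me3 peaks and 265.5 protein-coding genes per Mb. That is 0.484 islands per protein-coding gene in the intervals and 0.826 arm peaks per gene on the arms. Chromosome 2 had 206 islands, chromosome 3 had 160, chromosome 5 had 149, chromosome 1 had 129 and chromosome 4 had 90. Per Mb the 5 intervals were closer, with 41.2 on chromosome 2, 33.1 on 5, 32.2 on 1 and the lowest density on 4.

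Density dropped with distance from the interval boundary. The outermost 0.5 Mb inside the boundaries held 349 islands (69.8 per Mb). The next 0.5 Mb held 214 (42.8 per Mb), the band from 1 to 1.5 Mb held 95 (19 per Mb), and the band from 1.5 to 2.5 Mb held 76 (11.7 per Mb). Protein-coding genes thinned over the same bands, with 120, 82.4, 60.4 and 30.9 per Mb. The share of these genes that lay under H3K4me3 by at least 150 bp was also lower in deeper bands, at 47.5%, 38.1%, 24.2% and 19.9%. In the 0.5 Mb just outside the boundaries it was 61.7%. Deeper bands thus had both fewer genes and a smaller share of genes with H3K4me3. The interval of chromosome 4, at 3 to 6 Mb, has no part deeper than 1.5 Mb. The bands thus differ in the chromosomes they hold.

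**Figure D1:**
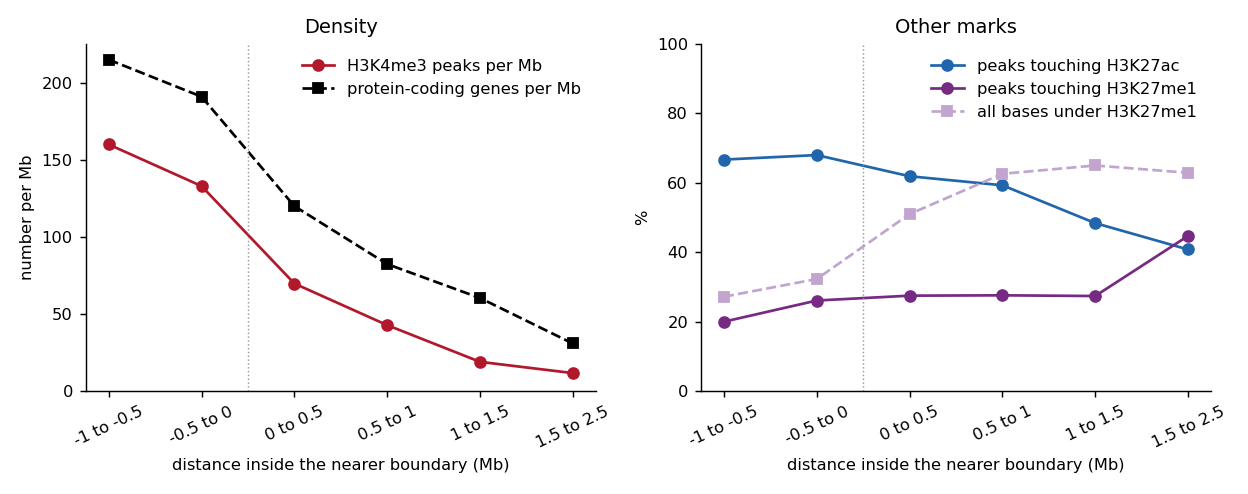
H3K4me3 peaks by distance inside the nearer boundary of their interval, in Mb, with negative distances outside it and the boundary at the dotted line. The left panel gives H3K4me3 peaks and protein-coding genes per Mb, and the right panel the share of peaks touching H3K27ac or H3K27me1 with the share of all bases under H3K27me1. Peak density is 69.8 per Mb in the first band inside and 11.7 per Mb in the deepest, where the share touching H3K27ac is 40.8% and the share touching H3K27me1 is 44.7%. The interval of chromosome 4 does not reach the deepest band.

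Many islands stood alone. The median gap to the next H3K4me3 peak was 3978 bp for islands (quartiles 1870 and 8446 bp) and 1524 bp for arm peaks (quartiles 836 and 2581 bp). The gap was over 10 kb for 157 islands (21.4%) and for 97 arm peaks (0.453%). These 157 islands had a median fold of 3.27 and touched H3K27ac in 49.7% of cases. The other 577 islands had a median fold of 3.6 and touched H3K27ac in 59.3%. The loneliest island lay at chr4:3356735-3357835 on the protein-coding gene AT4G06534, 309216 bp from the next H3K4me3 peak. Its fold was 5.88, and 77.7% of its 1101 bp lay under H3K27ac. The island on SKS6 (AT1G41830), a gene of the SKU5-similar family, was 286015 bp from its nearest neighbour, with a fold of 2.57. AT5G30495 and AT4G07825, with gaps of 187772 and 152821 bp, had folds of 4.71 and 4.51 and both touched H3K27ac. The remaining one of the 5 longest gaps, 242648 bp, belonged to a 373 bp island of fold 1.84 on AT3G33103. This gene is annotated as a transcribed pseudogene, and its island had no H3K27ac. Isolation was thus found both with high and with low folds.

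Most islands lay on protein-coding genes, though less often than arm peaks. Counting at least 150 bp on genes of a class, 561 of 734 islands (76.4%, interval 73.2 to 79.5%) lay on protein-coding genes, against 92.0% of arm peaks and 91.5% of all H3K4me3 peaks. They covered 557 distinct genes. Of the others, 77 islands (10.5%) lay on a pseudogene or transposon gene, which the gene table does not separate, against 1.48% of arm peaks. RNA genes held 42 islands (5.72%, against 1.96% of arm peaks), of which 21 were lncRNA genes, 11 miscellaneous RNA genes, 9 other noncoding RNA genes and 1 a snoRNA gene. No annotated gene lay under 54 islands (7.36%, against 4.57% of arm peaks), and 21 of these were within 1 kb of a protein-coding gene. From the summit to the closer end of a protein-coding gene the median distance was 373 bp for islands and 369 bp for arm peaks. The upper quartile was 824.5 bp for islands and 562 bp for arm peaks. Which end is the start is not known here, since the gene table has no strand.

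Seen from the genes, H3K4me3 was on a minority of the protein-coding genes in the intervals. It covered at least 150 bp of 556 of the 1517 genes with their middle in an interval (36.7%), of 77.5% of arm genes and of 75.2% of all 27444 genes. Genes in the intervals were shorter, with a median of 1503 bp against 2100 bp on the arms, and short genes carried the mark less often in both places. The difference was present in each length class. Under 1 kb, 10.3% of interval genes and 46.3% of arm genes carried H3K4me3. From 1 to 2 kb it was 35.9% and 75.9%, and at 2 kb or longer 61.8% and 87.1%. H3K27ac lay on 22.8% of interval genes, 57.9% of arm genes and 55.9% of all genes. H3K27me1 lay on 52.9% of interval genes, 25.3% of arm genes and 26.9% of all genes. H3K27me3 of the broad list lay on 4.68% of interval genes, 3.99% of arm genes and 4.03% of all genes.

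The most frequent state of an interval gene was H3K27me1 without either active mark, with 621 genes (40.9%, against 7.61% of arm genes). No mark of H3K4me3, H3K27ac and H3K27me1 was called on 326 genes (21.5%, against 12.45% of arm genes). H3K4me3 with H3K27ac but no H3K27me1 was called on 249 (16.4%, against 45.2% of arm genes). H3K4me3 stood alone on 130 genes (8.57%, against 15.4% of arm genes). It came with H3K27me1 only on 94 (6.20%, against 6.65%) and with both other marks on 83 (5.47%, against 10.15%). H3K4me3 lay on 177 of the 802 interval genes with H3K27me1 (22.1%) and on 379 of the 715 without it (53.0%). The same shares on the arms were 66.3% and 81.3%. Of the interval genes without H3K4me3, H3K27ac was called on 14 of 961 (1.46%), against 640 of 5841 such arm genes (10.96%).

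By the fold that the authors' peak list gives each peak, its enrichment over control, islands and arm peaks were close. The median fold was 3.56 for islands (quartiles 2.51 and 4.70) and 3.7 for arm peaks (quartiles 2.60 and 4.88). The median of −log10 q, the authors' significance per peak, was 59.8 and 65.4, and the median width 773.5 bp and 843 bp. The fold of islands ran from 1.17 to 7.69 and that of arm peaks from 1.32 to 8.45. Arm peaks reweighted to the width classes of islands had a median fold of 3.54, nearly level with the 3.56 of islands. On protein-coding genes the medians were 3.74 for islands and 3.81 for arm peaks. Within the islands, the class under the peak went with the fold. The median was 3.37 on pseudogenes and transposon genes, 3.1 on RNA genes and 2.42 where no gene was annotated. For arm peaks of these classes it was 2.97, 3.05 and 2.26.

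**Figure D2:**
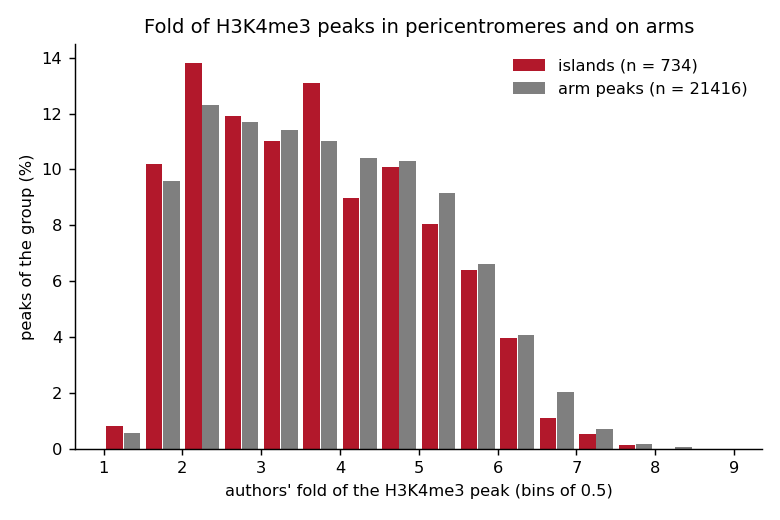
Share of the 734 islands and of the 21416 arm peaks, in percent of each group, by the authors' fold of the H3K4me3 peak in bins of 0.5. Both groups spread over the same range, with medians of 3.56 for islands and 3.7 for arm peaks.

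The median fold of islands was 3.6 on chromosome 1, 3.54 on 2, 3.26 on 3, 4.01 on 4 and 3.61 on 5. On the arms of the same chromosomes it was 3.68, 3.67, 3.71, 3.74 and 3.72. Chromosome 4 was the only one with a higher median in the interval than on its arms. At the 10 boundaries, the first island inside lay 190 to 357129 bp away and the first arm peak outside 1586 to 32626 bp away. These 10 islands had folds of 2.29 to 6.88 (median 3.79) with 5 touching H3K27ac, and these 10 arm peaks had 1.94 to 5.51 (median 2.5) with 4 touching it.

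**Figure D3:**
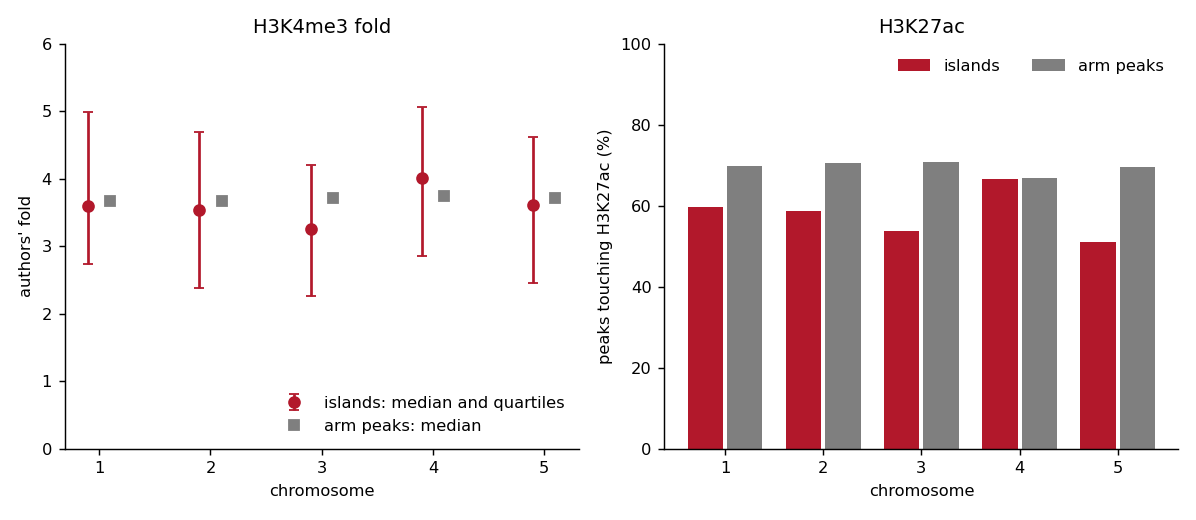
Islands and arm peaks by chromosome. The left panel gives the median fold with quartiles for islands and the median for arm peaks, and the right panel the share of peaks touching H3K27ac in percent. The share is lower for islands on chromosomes 1, 2, 3 and 5, and is 66.7% for islands and 66.9% for arm peaks on chromosome 4.

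Among islands on protein-coding genes, the 10 of highest H3K4me3 fold all touched H3K27ac. The highest was 7.69, at chr1:16963143-16964061 on AT1G44890, whose peak was 919 bp wide and 72.3% under H3K27ac. AT5G35460, at chr5:13672468-13673318 and 0.827 Mb inside the boundary, had 7.43. Next among protein-coding genes came AT1G36050 with 7.26, AT1G44770 with 7.01 and AT1G44960 with 6.88. NRPB3 (AT2G15430), a subunit of RNA polymerase II and of the plant RNA polymerases IV and V, had 6.77 at chr2:6733560-6734492, the highest on chromosome 2. VSR4 (AT2G14720), a receptor that sorts proteins to the vacuole, had 6.69. CDPK2 (AT1G35670), a calcium-dependent protein kinase, had 6.55, as did AT5G28150 and AT3G44050. On chromosome 4 the highest fold was 6.33, on AT4G08455. None of these 11 islands overlapped H3K27me1, which lay between 354 and 4342 bp away, and all of them touched H3K27ac. Both were usual at such folds. Among all peaks of fold 5.15 to 8.45, 96.0% of islands and 96.3% of arm peaks touched H3K27ac. H3K27me1 overlapped 6.35% and 6.32% of them.

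Some islands away from protein-coding genes were as strong. The strongest of them, chosen after its values were seen, lay at chr5:10150487-10151215 on the lncRNA gene AT5G04695. Its fold of 7.15 was the fourth highest of all islands, 46.4% of the peak lay under H3K27ac, and H3K27me1 was 1094 bp away. The highest fold on chromosome 3, 6.71, lay at chr3:15914559-15915471 on AT3G44205, a pseudogene or transposon gene. SADHU4-1 (AT5G28913), a noncoding retrotransposon of the Sadhu family, had a fold of 6.24 at chr5:10933904-10934892, with 62.2% of the peak under H3K27ac and H3K27me1 572 bp away. AT4G08991, AT2G09800 and AT2G14490, all pseudogenes or transposon genes, had folds of 6.02, 6.01 and 5.98. Where no gene was annotated the highest fold was 6.72, at chr2:6674530-6675347, 1799 bp from the nearest protein-coding gene. The next were 5.88 at chr2:5861490-5862430 and 5.42 at chr1:16990403-16991457. Peaks of 4.55 on chromosome 3 and 4.51 on chromosome 5 completed the first 5 of that class. Of these 5 only the one on chromosome 3 did not touch H3K27ac.

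Of the 5 widest islands, 3 lay on pseudogenes or transposon genes with no protein-coding gene under them. The widest, 6156 bp at chr2:3616515-3622670 on AT2G08986 and AT2G07981, had a fold of only 2.41. An island of 5990 bp at chr2:6819478-6825467, with a fold of 4.51, lay on AGL95 (AT2G15660), an AGAMOUS-like MADS-box gene. It also lay on the neighbouring AT2G15650, a pseudogene or transposon gene. The next 3, on chromosome 3, lay on AT3G29776 (5418 bp, fold 3.21), AT3G43315 (4521 bp, fold 4.59) and AT3G31420 (4276 bp, fold 3.75). The widest island lay wholly under both H3K27me1 and H3K27me3. The islands on AT3G29776 and AT3G31420 lay mostly under H3K27me1, and those on AGL95 and AT3G43315 did not overlap it.

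H3K27ac touched fewer islands than arm peaks, and the difference was largest among peaks of low H3K4me3 fold. It touched 420 of 734 islands (57.2%, interval 53.6 to 60.8%), against 69.7% of arm peaks (interval 69.0 to 70.3%) and 69.2% of all H3K4me3 peaks. The mark covered 1.21% of all bases of the intervals and 12.0% of those of the arms. At 5000 bp from the summit it was called for 4.70% of islands and 12.8% of arm peaks. How far this background enters the difference in touching was not tested. Islands with H3K27ac had a median H3K4me3 fold of 4.44, and islands without it 2.63. Among the touching H3K27ac peaks the median H3K27ac fold was 1.81 at islands and 1.79 at arm peaks, and the peaks covered a median of 61.5% of an island and 64.7% of an arm peak. The H3K27ac peaks that were called thus had nearly equal folds in both places. By class, H3K27ac touched 59.4% of islands on protein-coding genes and 69.9% of such arm peaks. It touched 40 of 77 islands on pseudogenes and transposon genes (52.0%, interval 40.3 to 63.5%) and 60.3% of such arm peaks. On RNA genes the shares were 57.1% for islands and 73.0% for arm peaks, and with no annotated gene 42.6% and 66.3%.

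Peaks were then compared within quintiles of the H3K4me3 fold of all peaks. In quintile 1 (fold 1.17 to 2.40) H3K27ac touched 36 of 165 islands (21.8%, interval 15.8 to 28.9%) and 40.8% of arm peaks (interval 39.4 to 42.3%). In quintile 2 it touched 56 of 155 islands (36.1%) and 54.5% of arm peaks. In quintile 3 the shares were 60.5% for islands and 70.1% for arm peaks, in quintile 4 83.7% and 86.3%, and in quintile 5 96.0% and 96.3%. In quintiles 4 and 5 the arm share lay inside the interval of the islands, and in quintiles 1 to 3 it lay above it. On protein-coding genes alone the shares of quintiles 1 and 2 were 24.1% and 35.4% for islands, and 37.8% and 52.8% for arm peaks. With arm peaks reweighted to the fold classes of islands, 67.8% of them touched H3K27ac. Without reweighting it was 69.7%.

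**Figure D4:**
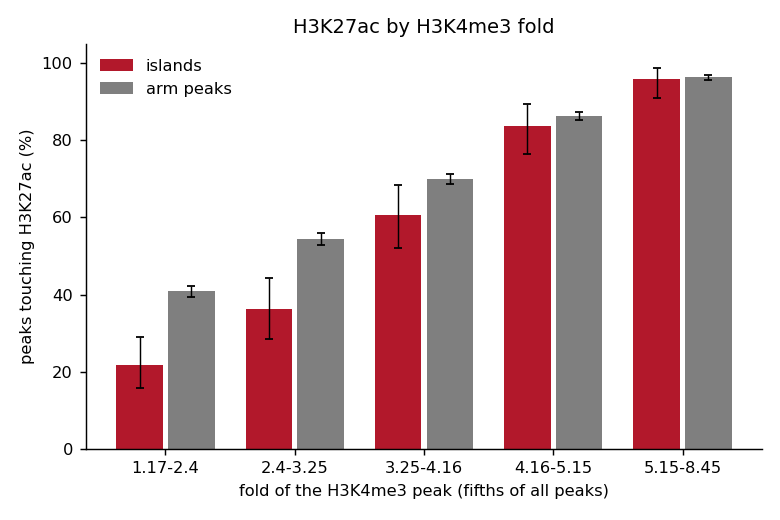
Share of islands and of arm peaks that touch an H3K27ac peak, in percent, within quintiles of the H3K4me3 fold of all peaks, with exact 95% binomial intervals as bars. The share is 21.8% for islands and 40.8% for arm peaks in quintile 1, and 96.0% and 96.3% in quintile 5.

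Among peaks with a fold under 3.25, which are quintiles 1 and 2, the share was lower for islands on each of the 5 chromosomes. H3K27ac touched 92 of 320 such islands (28.7%) and 47.7% of such arm peaks. By chromosome the shares were 30.8% and 47.3% on 1, 29.3% and 51.2% on 2, 35.4% and 48.2% on 3, 35.5% and 42.3% on 4, and 15.2% and 48.9% on 5. The arm share was 46.5% when reweighted to the width classes of these islands. Within 0.5 Mb of a boundary 35.3% of the low islands touched H3K27ac, and further inside 22.6% did. Over all folds the share was 61.9% in the outermost 0.5 Mb, then 59.3%, 48.4% and 40.8% in the deepest band. Over these bands 82.5%, 74.3%, 76.8% and 53.9% of islands lay on a protein-coding gene. Their median folds were 3.52, 3.73, 3.52 and 3.29. How far gene class and fold enter the change in H3K27ac with depth was not tested. No part of the chromosome 4 interval, which had the highest share of islands with H3K27ac (66.7%), lies in the deepest band. Among low peaks with H3K27me1 within 5 kb of both edges, 28.3% of islands and 45.0% of arm peaks touched H3K27ac. Among the other low peaks it was 30.1% and 48.5%. Among peaks of quintile 1 that overlapped H3K27me1, 16.3% of islands and 36.7% of arm peaks touched H3K27ac, and without H3K27me1 27.9% and 42.3%. The broad H3K27ac list, with few peaks in all, touched 1.09% of islands and 0.402% of arm peaks, the other way round.

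H3K27me1 overlapped or lay near most islands. In the narrow H3K27me1 list, the median gap from an island to the nearest peak was 590 bp (quartiles 0 and 1408 bp), and that from an arm peak 2977 bp (quartiles 693 and 7655 bp). It overlapped or lay within 1 kb of 64.9% of islands and of 29.4% of arm peaks, and within 5 kb of both edges for 470 islands (64.0%) and 18.2% of arm peaks. Overlap by at least 1 bp was found at 215 islands (29.3%), at 18.2% of arm peaks and at 18.6% of all H3K4me3 peaks. These values stand beside a far higher cover of the mark, which lay over 60.5% of all bases of the intervals and 11.8% of those of the arms. An overlap can fall on any base of a peak, so the overlap shares are not comparable with the base shares. At single positions, 22.9% of island summits lay under the mark, below the base share of the intervals. For arm summits it was 13.9%, slightly above the base share of the arms.

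Around the summits of islands H3K27me1 was called less often than further away. It covered 22.9% of island summits, 15.1% of positions 500 bp from the summit, 27.4% at 1000 bp, 37.2% at 2000 bp and 47.5% at 5000 bp. For arm peaks these shares were 13.9%, 7.07%, 7.35%, 9.45% and 9.74%. In both groups the share was thus higher on the summit itself than 500 bp to its side. H3K27ac had 55.0% on island summits and 66.2% on arm summits, and 2.79% and 9.30% at 1000 bp.

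**Figure D5:**
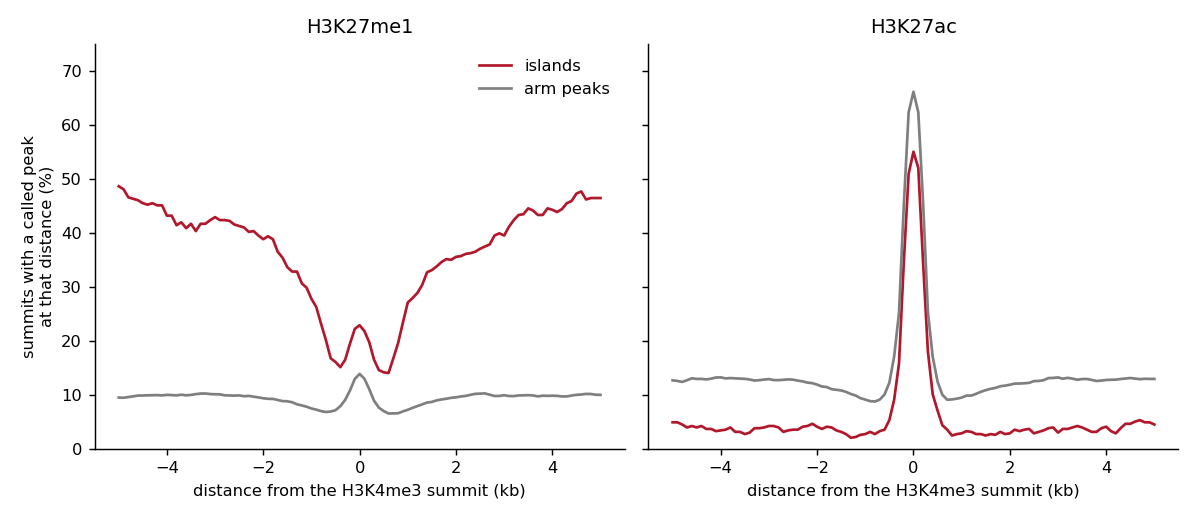
Share of H3K4me3 summits, in percent, that have a called H3K27me1 peak (left) or H3K27ac peak (right) at each distance from the summit in kb, in steps of 100 bp, for islands and arm peaks. H3K27me1 is at 22.9% on island summits and at 47.5% at 5 kb, and H3K27ac is at 55.0% on island summits and at 66.2% on arm summits.

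Islands that overlapped H3K27me1 were weaker in H3K4me3. Their median fold was 2.70 (quartiles 2.1 and 3.51), against 4.01 (quartiles 2.87 and 5.05) for the 519 islands without H3K27me1, and 40.9% of them touched H3K27ac, against 64.0%. Arm peaks showed the same order, with median folds of 3.02 with and 3.90 without H3K27me1, and 58.4% and 72.2% touching H3K27ac. By fold, H3K27me1 overlapped 52.1% of islands in quintile 1, then 38.7%, 29.3% and 12.8%, and 6.35% in quintile 5. On arm peaks it overlapped 26.4% in quintile 1 and 6.32% in quintile 5. Overlap also differed by class. It was found at 25.7% of islands on protein-coding genes, at 49.4% of those on pseudogenes and transposon genes, at 40.5% of those on RNA genes and at 29.6% of those with no annotated gene. For arm peaks of these classes the shares were 18.8%, 37.2%, 7.64% and 4.09%. The strongest islands that overlapped it were those on AT3G29310 (fold 6.02), AT4G08991 (6.02), AT2G09800 (6.01), AT3G44240 (5.85) and AT1G44740 (5.67). In each of these 5 it covered part of the peak, from 19.4% on AT4G08991 to 58.8% on AT3G44240.

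The relation to H3K27me1 depended on the list used. In the broad H3K27me1 list, which covered 6.99% of the bases of the intervals and 4.64% of those of the arms, the median gap was 27274 bp for islands and 16568 bp for arm peaks, and 5.45% of islands and 6.63% of arm peaks overlapped it. The order of the 2 groups was thus turned.

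H3K27me3 of the broad list touched 41 islands (5.59%, interval 4.04 to 7.50%), 3.96% of arm peaks and 4.01% of all H3K4me3 peaks. In the narrow list it touched 2.86% of islands and 1.47% of arm peaks. The islands of highest H3K4me3 fold with H3K27me3 were on AT2G15560 (6.25), ORP1C (AT4G08180; 6.07), an oxysterol-binding protein-related gene, CYCT1;1 (AT1G35440; 6.03), a T-type cyclin gene, RIK (AT3G29390; 6.02), which encodes a KH-domain protein, and AT2G15270 (5.67). H3K27me3 covered between 40.4% and 49.6% of each of these 5, and none of them overlapped H3K27me1.

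A small set of islands lay under H3K27me1 and H3K27me3 together. At 12 islands (1.63%) at least 90% of the peak lay under H3K27me1 and at least 90% under H3K27me3, which was so for 6 arm peaks (0.0280%). They were singled out after their values were seen. Of the 12, 11 lay more than 0.5 Mb inside a boundary and 10 had a fold under 2. H3K27me3 covered the whole width of all 12, and 4 were also touched by H3K27ac. A pair of them, at chr3:14194009-14195621 on AT3G41762 and at chr3:14202786-14203903 on AT3G06365, flanked the 2 rRNA genes AT3G41768 and AT3G41979. The island on AT3G06365 had a −log10 q of 559.9 at a fold of 3.86, where the next highest among islands of fold 3.5 to 4.2 was 90.2. Another 3 lay side by side on AT2G07981 and AT2G08986, and a pair with no annotated gene lay at chr5:11728091-11731165 and chr5:11732009-11735930. How far reads from repeated sequence contribute to these peaks was not tested. Without the 12, H3K27me3 touched 4.02% of islands, and 28.8% of islands of fold under 3.25 touched H3K27ac. In the deepest band, from 1.5 to 2.5 Mb, 38.2% of islands then touched H3K27me1 and 39.7% H3K27ac. With the 12 these shares were 44.7% and 40.8%.

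Known genes in the intervals were then followed by function, in 7 lists of 83 genes, written with earlier results of these data known. Of these, 52 lay in an interval, 28 lay outside and 3 were left out because the gene table gives their symbol to another locus. H3K4me3 lay on 42 of the 52, H3K27ac on 27 and H3K27me1 on 14, against 36.7%, 22.8% and 52.9% of all interval genes. Hand-picked genes are not a sample of a function or of all genes. These values, and those of each list below, thus describe the named genes only. Their highest folds per gene had a median of 4.55. Counting every peak, the median was 3.74 for islands on protein-coding genes and 3.56 for all islands.

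Of the genes listed for DNA replication and cell division, all 7 in the intervals had H3K4me3 and H3K27ac, and none had H3K27me1. Among all interval genes 36.7% had H3K4me3, 22.8% H3K27ac and 52.9% H3K27me1. The folds of the 7 ran from 3.30 to 5.61. MCM2 (AT1G44900) and MCM5 (AT2G07690), subunits of the replicative helicase, had folds of 5.11 and 5.32. RPA1A (AT2G06510), a subunit of the single-stranded DNA-binding protein RPA, had 5.61. MCM9 (AT2G14050) had 4.59, the A-type cyclin gene CYCA1;1 (AT1G44110) 4.44 and MIS12 (AT5G35520), which encodes a kinetochore protein, 4.83. H3K27me1 lay 739 bp from the island of MCM5 and 666 bp from that of RPA1A.

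Of the genes listed for translation, RNA and protein folding, all 8 in the intervals had H3K4me3 and H3K27ac, with a median fold of 4.97. Among all interval genes H3K4me3 lay on 36.7% and H3K27ac on 22.8%. The nuclear cap-binding protein gene ABH1 (AT2G13540) had 6.33, with H3K27me1 229 bp away. PTB3 (AT1G43190), which encodes an RNA-binding protein, had 5.49, LSP1 (AT5G35620), a translation initiation factor gene, 5.04, and the chaperone gene J3 (AT3G44110) 5.01. The ribosomal protein L3 gene RP1 (AT1G43170) had a lower fold of 3.01. BIP1 (AT5G28540), a chaperone gene of the endoplasmic reticulum, had 2.79 and was the only member with H3K27me1. BIP1 also has a near-identical copy, and how reads were shared between them was not tested.

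Of the genes listed for chromatin and silencing, all 6 in the intervals had H3K4me3 and 3 had H3K27ac. Among all interval genes the shares were 36.7% and 22.8%. ARP6 (AT3G33520), a subunit of the complex that deposits H2A.Z, had a fold of 4.44 without H3K27ac. DCL3 (AT3G43920), which makes small RNAs of the RNA-directed DNA methylation pathway, had 2.96, and CHR38 (AT3G42670; CLSY1), a remodeller of the same pathway, had 2.37, both without H3K27ac. DAYSLEEPER (AT3G42170), a transposase-derived gene, had 5.91, ELF8 (AT2G06210), of the transcription-associated Paf1 complex, 4.73, and the corepressor gene SEU (AT1G43850) 4.59, all 3 with H3K27ac.

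The 13 signalling and developmental genes listed in the intervals were split, with H3K4me3 on 8 and H3K27me1 on 6. Among all interval genes H3K4me3 lay on 36.7% and H3K27me1 on 52.9%. TES (AT3G43210), a kinesin needed for cytokinesis in male meiosis, had a fold of 6.30, CDPK2 6.55 and the photoreceptor gene PHYC (AT5G35840) 4.77. SOS2 (AT5G35410), a kinase of salt tolerance, had 4.51 and MEKK1 (AT4G08500) 3.99, both without H3K27ac. The cytokinin receptor gene HK2 (AT5G35750), the photoreceptor gene CRY1 (AT4G08920) and AN3 (AT5G28640), a coactivator of leaf growth, had no H3K4me3. Nor did the seed coat regulator TT2 (AT5G35550) and the meristem homeobox gene KNAT1 (AT4G08150), and all 5 carried H3K27me1. KNAT1 also carried H3K27me3, as did SAP (AT5G35770), which had H3K4me3 and H3K27ac. H3K27me3 lay on 4.68% of all interval genes. The listed metabolic genes were also split, with H3K4me3 on 10 of 14, H3K27ac on 3 and H3K27me1 on 6. For all interval genes these shares were 36.7%, 22.8% and 52.9%. The nitrate and nitrite reductase genes NIA2 (AT1G37130) and NIR1 (AT2G15620) had folds of 5.46 and 5.31, and CAS1 (AT2G07050), of sterol synthesis, had 5.46. The 2 acetyl-CoA carboxylase genes ACC1 (AT1G36160) and ACC2 (AT1G36180) had 2.78 and 2.48 without H3K27ac. The photosynthesis gene GAPB (AT1G42970), the chloroplast glutamine synthetase gene GS2 (AT5G35630) and the sucrose synthase gene SUS4 (AT3G43190) had no H3K4me3 and carried H3K27me1. PGLP1 (AT5G36700), of photorespiration, had neither mark, a reading that is uncertain because the genome holds a near-identical copy of this gene. In all, 8 of the 10 list genes without H3K4me3 carried H3K27me1, as did 625 of all 961 interval genes without H3K4me3 (65.0%).

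Of 9 genes listed for the pollen vegetative cell, the other cell type of pollen that a sort could hold, 4 lay in an interval. CALS5 (AT2G13680), the callose synthase gene of the pollen wall, had a fold of 5.01 and AT2G07180 had 3.61. ANX2 (AT5G28680), a receptor kinase of the pollen tube, had 2.5 with H3K27me1 and H3K27me3. AT1G35490 had no H3K4me3 and carried H3K27me3. None of the 7 male germline genes listed lay in an interval, so the islands hold no test of the sorted cell type by these genes. All 7, on the arms, carried both active marks. So did the vegetative-cell genes ANX1 (AT3G04690; fold 6.18) and CPK17 (AT5G12180; fold 4.32) on the arms. Of the 7 germline genes, DMP9 (AT5G39650) and TET12 (AT5G23030) also carried H3K27me3, which lay on 3.99% of all arm genes. The other 3 vegetative-cell genes on the arms had no H3K4me3, though CPK34 (AT5G19360) carried H3K27ac. Of all arm genes 77.5% had H3K4me3, and 71.5% of those had H3K27ac as well. Both marks are thus common on arm genes, and genes of both cell types carried them.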

How the data were processed

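Sperm chromatin was profiled by ChIP-seq with 50 bp paired-end reads, per the labels' protocols. MACS2 2.1.0, Bowtie2 2.1.0, Trim Galore 0.4.1, deepTools 2.5.0.1, SAMtools 1.3, bedtools and Picard appear in the submitters' processing notes, as does the build TAIR10. The settings used with them were not given in these sources. The authors deposited 8 peak lists without headers, a narrow and a broad one for each of 4 marks, each over all replicates. Narrow lists give a fold (a ratio over control) and every deposited list gives −log10 q. The deposited positions, and the summit offsets of the narrow lists, are in bp. Broad folds were not used.

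Starts were made 1-based. The RefSeq gene table is of TAIR10.1 and lacks strand, so no gene coordinates are printed. Moving island summits against gene ends in 250 bp steps, 5000 bp either way, gave the most summits within 500 bp at a shift of 0 in all 5 intervals. Narrow lists were used for H3K4me3, H3K27ac and H3K27me1 and the broad one for H3K27me3. Marks were shared at 1 bp, and a gene was marked at 150 bp. Classes were taken in the order protein-coding, pseudogene or transposon gene, RNA gene. Reweighting gave arm peaks the share of islands in each quintile of width or fold. Named peaks were the 10 of highest fold on protein-coding genes, the highest per interval, the 5 widest, the 5 most isolated, the 5 highest in each of the classes named, and list members. The members and lists were chosen with earlier results of these data known. Promoter motifs were planned but were not run, since no sequence table was used here. Interval functions were tested on simulated data. The tools were pandas 2.3.3, numpy 2.4.6, matplotlib 3.10.9 and scipy 1.17.1 under Python 3.11.15.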

Additional observations from a re-analysis of the deposited data

How the results depend on the processing

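No paired analysis was possible because the lists hold no values per sample, and no replicate could be left out for the same reason. No H3K4me3 interval occurred more than once, so counting distinct intervals changes nothing and was not run. When H3K4me3 peaks needed a −log10 q of 20 or more, the median fold of islands was 3.98, 79.8% lay on a protein-coding gene and 66.3% touched H3K27ac (76.3% of arm peaks). With boundaries moved inward by 500 kb there were 385 islands, 70.9% on a protein-coding gene and 53.0% with H3K27ac. Moved outward there were 1397, with 81.3%, 62.3% and a median H3K27me1 gap of 689 bp. The broad H3K4me3 list gave 477 islands with a gap of 504 bp. On protein-coding genes alone the median fold was 3.74. H3K27ac was shared by 41.3% of islands over at least 50% of the peak (50.8% of arm peaks), by 45.2% with H3K27ac of −log10 q of at least 5 (55.8%) and by 1.09% in the broad list (0.402%), the only setting with the higher share at islands. The gap to H3K27me1 was 688 bp with −log10 q of at least 5, 913 bp from the summit and 27274 bp in the broad list, the only setting with the shorter gap at arm peaks. H3K27me3 touched 2.86% in the narrow list and 4.02% without peaks at least 90% under both H3K27me1 and H3K27me3, a setting added after the data were seen. The cause of these moves was not tested. The depth of the libraries is unknown, so a peak that is not called is not shown to be absent.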
